A study of Mus musculus with 4 samples.

Results

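Among cells isolated as hepatic CD4 T cells from mice with diet-induced steatohepatitis, 3693 of 28018 were plasmacytoid dendritic cells (pDCs) by their RNA. They were chosen by unique molecular identifiers (UMIs, each of which stands for 1 captured RNA molecule) and not by a deposited annotation. A pDC had more than 200 genes, under 5% mitochondrial UMIs, at least 2 UMIs of *Siglech*, none of *Cd3e*, *Cd3d* or *Cd3g*, none of *Lyz2*, and no T cell receptor contig (an assembled receptor transcript) in the contig table of its own genotype. The library labelled WT held 921 of them among 10556 cells, and the library labelled dKO held 2772 among 17462. *Siglech*, the 3 Cd3 genes, *Lyz2* and the contigs therefore chose the cells, and their values below describe that choice.

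Both libraries came from male mice given CD, a high-fat diet low in methionine (60 kcal% fat, 0.1% methionine) and deficient in choline, for 8 weeks, and each pooled the hepatic CD4+ T cells of 2 mice that the files do not separate. The labels give the genotypes as WT and as a knockout of *Nr4a1* and *Nr4a2*. The dKO mice carried *Nr4a1* fl/fl, *Nr4a2* fl/fl and a Cd4-Cre transgene, so that recombination follows the *Cd4* promoter, and the ages were not given in the sources used here. With 1 library per genotype there was no replicate and no test between genotypes. The isolation of the cells, the preparation of a library and the genotype cannot be told apart. Genes were compared by size with exact 95% intervals (Poisson for a level, conditional binomial for a ratio, Clopper-Pearson for a share of cells), which cover counting error only. A level is the summed UMIs of a gene over a group of cells scaled to counts per 1e+06 UMIs of that group (CPM).

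*Nr4a1* and *Nr4a2* were higher in the dKO pDCs than in the WT pDCs. The paper describes their loss as specific to T cells, so the label does not by itself call for a lower level in pDCs. Whether pDCs recombined was not tested. In T cells, where the label calls for a loss, *Nr4a1* was higher as well. *Nr4a1*, an immediate early nuclear receptor, had 614 CPM (582 to 648) in the WT pDCs and 1269.7 CPM (1245.8 to 1293.9) in the dKO pDCs, a log2 ratio of 1.05 (0.97 to 1.13). *Nr4a2* had 23.4 CPM (17.5 to 30.6) and 45.8 CPM (41.4 to 50.6). In T cells with a contig, *Nr4a1* had 731 and 1857 CPM. A UMI count does not say which exons a transcript holds, and a 5′ tag outside the deleted part checks nothing, so the libraries are called by their labels, and each difference given between them takes those labels as they stand.

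The WT pDCs held 2225535 UMIs and the dKO pDCs 8465877. Their median depth was 1811 and 2921.5 UMIs per cell, with 1006 and 1427 genes. T cells, taken for comparison as cells with a contig, a Cd3 UMI and neither *Siglech* nor *Lyz2*, numbered 3387 and 4178, at medians of 2139 and 1630 UMIs. *Lyz2* cells, with at least 2 *Lyz2* UMIs, no *Siglech*, no Cd3 UMI and no contig, numbered 158 and 225, at medians of 1663.5 and 3187 UMIs. Listed neutrophil genes summed to 93.4 CPM in the WT *Lyz2* cells and 17033 CPM in the dKO *Lyz2* cells. This class was thus not made up alike in both libraries, which bears on each comparison with it below. A gene at 100 CPM rested on 223 UMIs in the WT pDCs (interval 87.5 to 114 CPM) and on 847 UMIs in the dKO pDCs (93.4 to 107 CPM). Both libraries shared 245 cell barcodes, of which 3 belonged to pDCs.

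pDCs are dendritic cells of lymphoid appearance that sense viral RNA and DNA in endosomes through *Tlr7* and *Tlr9* and can release large amounts of type I interferon. Their fate depends on the E protein *Tcf4*, with *Irf8*, *Runx2*, *Bcl11a* and *Spib*, and is opposed by *Id2*, which favours conventional dendritic cells. In mice they carry *Siglech* and *Bst2* on their surface, home to the gut and other organs through *Ccr9*, have an extensive secretory apparatus, and can carry *Cd4* or Cd8 on their surface.

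Of the cells with at least 2 *Siglech* UMIs, 1298 in WT and 3882 in dKO, the other conditions removed 377 and 1110. A Cd3 UMI was present in 356 and 955 of them, a contig in 126 and 288, and a *Lyz2* UMI in 36 and 223, with overlaps. The cells with a contig and at least 2 *Siglech* UMIs had medians of 5019.5 and 4740 UMIs, against 2178 and 1724 in all cells with a contig. The condition kept nearly equal parts of the *Siglech* cells, 71.0% and 71.4%.

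Just inside the limit, 183 WT cells and 194 dKO cells had exactly 2 *Siglech* UMIs, and just outside it 170 and 134 cells had 1 UMI while passing every other condition. Both sides carried other pDC genes. *Klk1* had 2131 CPM inside and 2078 CPM outside in the WT cells, and 2784 and 2769 CPM in the dKO cells. *Bst2* had 5186 CPM inside and 4666 CPM outside in the WT cells, and 4394 and 4010 CPM in the dKO cells. In cells without a *Siglech* UMI that passed every other condition, 746 and 639 in number, *Klk1* had 256 and 336 CPM. The limit thus left out some cells with the same leading genes.

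The label is described below by the 4 markers that the choice did not use (*Bst2*, *Ccr9*, *Klk1* and *Cox6a2*). They came with the label, which was set with earlier results of these data known, so their levels are not an independent check of it. Promoters, the 250 bases before the gene's start in RefSeq (GRCm38.p6), are shown for *Siglech*, which the rule used, and for *Bst2*, *Ccr9* and *Klk1*, to let the motif content be read beside the levels. Capitals mark a match, on either strand, to CAGGTG (an E-box of the type that E proteins such as *Tcf4* bind, reverse CACCTG), to GAAA, any 2 bases and GAAA again (the core of interferon-response elements, reverse TTTC, any 2 bases, TTTC) or to TGTGGT (the core of Runx sites, reverse ACCACA). *Siglech* is at chr7:55767934-55768183 on the plus strand, *Bst2* at chr8:71537473-71537722 on the minus strand, *Ccr9* at chr9:123766961-123767210 on the plus strand and *Klk1* at chr7:44225110-44225359 on the plus strand. *Cox6a2* is named only.
Siglech: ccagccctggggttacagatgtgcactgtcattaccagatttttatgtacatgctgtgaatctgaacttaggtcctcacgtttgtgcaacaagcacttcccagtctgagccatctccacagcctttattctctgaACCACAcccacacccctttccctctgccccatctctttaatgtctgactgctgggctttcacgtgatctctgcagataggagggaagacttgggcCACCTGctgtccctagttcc
Bst2: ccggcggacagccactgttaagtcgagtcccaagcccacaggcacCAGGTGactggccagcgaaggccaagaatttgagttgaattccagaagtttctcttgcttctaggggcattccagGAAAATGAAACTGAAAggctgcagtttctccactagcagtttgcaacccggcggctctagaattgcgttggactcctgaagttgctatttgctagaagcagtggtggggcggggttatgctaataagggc
Ccr9: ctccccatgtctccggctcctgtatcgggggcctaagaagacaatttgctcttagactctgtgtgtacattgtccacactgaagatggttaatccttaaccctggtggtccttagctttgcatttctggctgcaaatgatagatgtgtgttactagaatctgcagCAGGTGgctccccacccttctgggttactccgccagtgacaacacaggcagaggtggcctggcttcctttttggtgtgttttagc
Klk1: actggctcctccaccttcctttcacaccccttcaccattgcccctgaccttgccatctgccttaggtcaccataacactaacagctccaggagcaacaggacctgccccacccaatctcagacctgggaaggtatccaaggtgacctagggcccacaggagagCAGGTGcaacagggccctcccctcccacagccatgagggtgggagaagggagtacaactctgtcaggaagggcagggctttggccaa
Each of the 4 windows held CAGGTG or its reverse once, a motif found in 17.2% of all 32851 windows of this length in the table. *Bst2*, an interferon-induced gene, also held the interferon-response core at 2 overlapping places (2.98% of windows hold it), and *Siglech* held ACCACA (14.0%). CAGCTG, an E-box palindrome (13%), was in none of them. Of the 15 genes with the highest ratio over T cells, 11 had an entry. Without *Siglech*, which the rule places there, 4 of 10 held CAGGTG (*Paqr5*, *Klk1*, *Olfr164* and *Cd300c*). Per gene, 19.4% of 27025 genes hold it. A match is a description of letters and not a binding site.

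GENCODE M21 places the marker genes on GRCm38 as follows: *Siglech* (ENSMUSG00000051504) at chr7:55768178-55778925 on the plus strand, *Bst2* (ENSMUSG00000046718) at chr8:71534255-71537456 on the minus strand, *Ccr9* (ENSMUSG00000029530) at chr9:123678439-123784330 on the plus strand, *Klk1* (ENSMUSG00000063903) at chr7:44225360-44229618 on the plus strand and *Cox6a2* (ENSMUSG00000030785) at chr7:128205435-128206387 on the minus strand.

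All 4 markers that the rule did not use were abundant in the pDCs of both libraries and far lower in T cells, which had a low level of *Bst2* and, in the library labelled dKO, of *Ccr9*. *Bst2* (tetherin, which holds budding virus at the membrane) had 4017 CPM (3934 to 4101) in the WT pDCs and 4343 CPM (4299 to 4387) in the dKO pDCs, against 122 and 154 CPM in T cells. *Klk1*, a tissue kallikrein protease, had 1959.5 CPM (1902 to 2019) and 1765 CPM (1737 to 1794), against 1.12 and 4.83 CPM in T cells. *Ccr9*, the receptor for *Ccl25*, had 838 CPM (800.4 to 877) and 873 CPM (853 to 893), against 3.36 and 35.6 CPM. *Cox6a2*, a subunit of cytochrome c oxidase best known from muscle, had 2233 CPM (2171 to 2296) in the WT pDCs and 1293.0 CPM (1269 to 1317) in the dKO pDCs, and 1.79 and 2.36 CPM in T cells. It was the one marker of the 4 whose intervals lay far apart, at a log2 ratio of −0.79 (−0.84 to −0.74). *Siglech* itself had 3012 and 2232 CPM.

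To set shares of cells beside each other at 1 depth, cells were thinned at random to 2000 UMIs apiece, leaving 441 of the 921 WT pDCs and 2538 of the 2772 dKO pDCs. *Bst2* was then found in 99.1% of the former and in 2538 of 2538 of the latter (98.2% and 99.7% unthinned), against 20.3% and 22.7% of thinned T cells. *Klk1* was found in 76.4% and 71.9% (75.2% and 77.0% unthinned), against 0.160% and 0.522% of T cells. *Ccr9* was found in 73.5% and 73.8% (60.9% and 83.1% unthinned), against 0.746% and 5.74% of T cells. *Cox6a2* was found in 90.9% of the WT pDCs and 68.8% of the dKO pDCs (93.3% and 74.1% unthinned), so that its share differed in the same direction as its level. The share of T cells with a UMI is from the 1876 WT and 1532 dKO T cells with at least 2000 UMIs. For *Bst2*, and for *Ccr9* in the library labelled dKO, that share may hold more than background, since T cells had a low level of these genes.

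**Figure D1:**
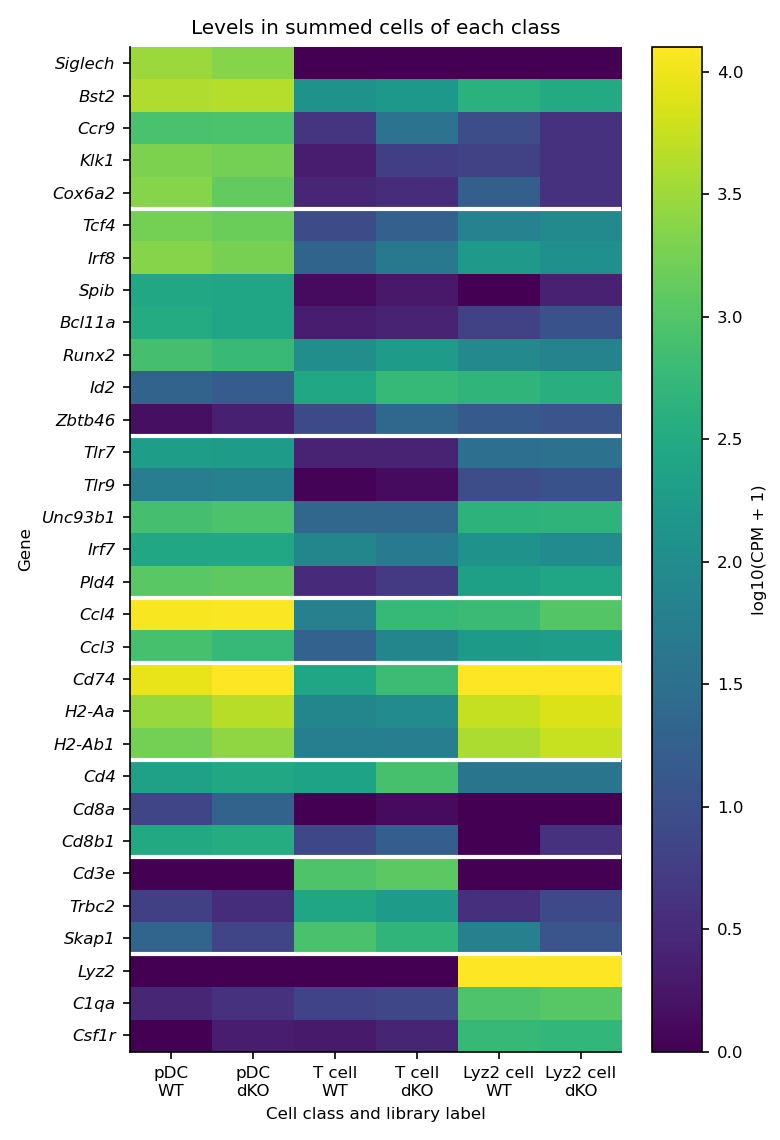
Summed level of each gene, as log10 of CPM + 1, in the pDCs, T cells and *Lyz2* cells of each library. Rows are genes, columns are classes and library labels, and the colour scale ends at its top value. *Bst2*, *Klk1* and *Ccl4* are bright in both pDC columns (*Ccl4* at 11676 and 11789 CPM), *Cd4* is present in pDCs and T cells alike, and *Siglech*, *Cd3e* and *Lyz2* show the rule.

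Most listed genes of pDC identity were far higher than in T cells in both libraries. Of 3774 genes compared (at least 50 CPM in one of the groups), 366 were at least 4-fold higher in pDCs than in T cells in both libraries (9.7%) and 283 were at least 4-fold lower (7.5%). Of the 31 genes listed for pDC identity, 28 could be compared, 22 were higher and 0 lower, at a median log2 ratio of 5.50 in the WT cells and 5.63 in the dKO cells, against −0.11 and −0.09 over all genes. A count for *Siglech* itself would follow from the rule, which fixes it in both classes. *Ly6d*, an early lymphoid surface protein, had 2283 CPM in the WT pDCs and 3268 CPM in the dKO pDCs. *Ly6c2* had 1924 and 1329 CPM, the exonuclease *Pld4* 1118 and 1196.5 CPM, and *Mctp2* 931 and 845 CPM. *Cd7* had 894 and 632 CPM, *Lair1*, a collagen receptor, 837 and 728 CPM, and the sodium pump subunit *Atp1b1* 799 and 603 CPM.

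The 15 genes with the highest ratio over T cells, by the lower of both libraries, were *Siglech*, *Sh3bgr*, *Cox6a2*, *Smim5*, *Paqr5*, *Gapt*, *Rnase6*, *Ly6d*, *Klk1*, *Atp2a1*, *Olfr164*, *Cd300c*, *Pld4*, *Hs3st1* and *Spib*. Several belong to no immune list. *Sh3bgr* had 280.4 CPM in the WT pDCs and 247 CPM in the dKO pDCs, with 0 and 2 UMIs in all T cells together. *Atp2a1*, the calcium pump of fast muscle, had 200.4 and 198 CPM, and the olfactory receptor gene *Olfr164* had 161 and 113 CPM. *Rnase6*, a secreted ribonuclease, had 1014 and 930 CPM. Each was at or near 0 in *Lyz2* cells as well, except *Rnase6* at 60.5 and 36.2 CPM.

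The transcription factors of the lineage were at high level in both libraries. *Tcf4* had 1746.5 CPM (1692 to 1802) in the WT pDCs and 1492 CPM (1466 to 1518) in the dKO pDCs, against 7.94 and 17.1 CPM in T cells, and was found in 95% and 91.2% of thinned pDCs. *Irf8* had 2280.3 and 1846 CPM, against 19.9 and 45.0 CPM in T cells. *Runx2*, which serves the exit of pDCs from bone marrow, had 780 and 575 CPM, *Zeb2* 507 and 427 CPM, *Xbp1*, a factor of secretory cells, 463 and 432 CPM, and *Bcl11a* 333 and 253 CPM. *Spib* had 279 and 268 CPM, with under 1 CPM in T cells of either library. *Id2* had 18.9 and 14.8 CPM in pDCs against 282 and 564 CPM in T cells, and *Zbtb46*, a factor of conventional dendritic cells, had 1 and 11 UMIs in all. Of 19 listed factors compared, 7 were at least 4-fold higher than in T cells and 3 at least 4-fold lower, against 9.7% and 7.5% of all genes.

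The sensing apparatus was present while interferon RNA was hardly found. *Tlr7* had 190.5 CPM in the WT pDCs and 176 CPM in the dKO pDCs, and *Tlr9* had 56.2 and 62.5 CPM, against under 2 CPM of either in T cells. After thinning, a *Tlr7* UMI was found in 32.0% and 28.3% of pDCs and a *Tlr9* UMI in 10.7% and 11.3%. *Unc93b1*, which brings both receptors to endosomes, had 787 and 856 CPM, the protease *Ctsb* 2320.3 and 2053 CPM, the lysosomal transporter *Slc15a4* 176 and 147 CPM, and *Irf5*, which acts below these receptors, 128 and 129.6 CPM. *Irf7*, the master factor of interferon genes, had 290.3 and 277.5 CPM. Of 14 sensing genes compared, 8 were higher than in T cells and 1 lower (9.7% and 7.5% of all genes), at median log2 ratios of 2.69 and 2.34 against −0.11 and −0.09 over all genes.

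None of 14 Ifna genes (*Ifnab* among them) had a UMI in any pDC of either library. At 3 counts this allows up to 1.35 CPM in the WT pDCs and 0.354 CPM in the dKO pDCs for each gene. *Ifnb1* had 0 UMIs in the WT pDCs and 9 UMIs in 4 dKO pDCs. Over all 20 type I and III interferon genes there were 2 UMIs in 2 cells and 20 UMIs in 12 cells. Ifna genes are near-identical copies, and reads that match several of them can be lost in counting. Of 10 interferon-stimulated genes compared, 1 was higher than in T cells (*Bst2*, a pDC marker in its own right) and 1 lower (*Zbp1*), near the 9.7% and 7.5% of all genes, at median log2 ratios of −0.24 and −0.34. *Isg15* had 47.6 CPM in the WT pDCs and 71.9 CPM in the dKO pDCs, against 152 and 170.1 CPM in T cells. In the dKO pDCs, 361 of its UMIs lay in 70 cells (cluster 5 of the clustering described below), against 184 in the 2261 cells of cluster 1.

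*Ccl4*, a chemokine of the CC family, was the cytokine gene with the highest level. It had 11676 CPM (11535 to 11819) in the WT pDCs and 11789 CPM (11716 to 11863) in the dKO pDCs, more than 1% of all their UMIs. T cells had 59.3 and 548 CPM, and *Lyz2* cells 624 and 997 CPM. A *Ccl4* UMI was found in 87.5% and 91.3% of thinned pDCs (85.9% and 92.1% unthinned), against 4.48% and 14.7% of T cells and 21.4% and 33.7% of *Lyz2* cells. *Ccl3*, of the same family, had 816 and 566 CPM and was found in 36.3% and 33.4% of thinned pDCs. *Tnf* had 65.2 and 98.5 CPM. *Il12a*, which encodes the p35 chain of Il12, had 19.8 CPM (14.4 to 26.5) and 40.6 CPM (36.4 to 45.2), and 0 UMIs in T cells of either library. *Ccl5* went the other way, with 38.6 and 41.3 CPM in pDCs against 1479 and 5560.3 CPM in T cells, and no *Il6* UMI was found in the pDCs.

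Of 14 receptors and adaptors that regulate pDCs, 12 were at least 4-fold higher than in T cells and 2 at least 4-fold lower, against 9.7% and 7.5% of all genes, at median log2 ratios of 6.24 and 6.28. Here too a count for *Siglech* would follow from the rule and not from the cells. The adaptor *Tyrobp* (Dap12), which signals for *Siglech*, had 5641 and 6136.5 CPM, and *Fcer1g*, the adaptor of Fc and related receptors, had 1157.5 and 1385 CPM. *Cd300c* had 491 and 363 CPM, the Ly49 family member *Klra17* 302 and 372 CPM, and *Havcr1* (Tim-1) 90.8 and 79.4 CPM. *Klra17* has near-identical relatives, so its UMIs can be shared between them.

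The genes listed for antigen presentation summed to 25547 CPM in the WT pDCs and 37449 CPM in the dKO pDCs, and 1 of them passed the 2-fold limit. *Cd74*, the invariant chain, had 9347 CPM (9220 to 9475) in the WT pDCs and 13759.7 CPM (13681 to 13839) in the dKO pDCs, a log2 ratio of 0.56 (0.54 to 0.58). *H2-Aa* had 2888 and 4640.0 CPM, *H2-Ab1* 1761 and 2643 CPM, and *H2-Eb1* 1387 and 2451 CPM, with log2 ratios of 0.68, 0.59 and 0.82. Of 17 listed genes with at least 50 CPM, 1 was at least 2-fold higher in the dKO pDCs (*H2-DMb2*) and 0 were lower, where 0.557% and 0.997% of all genes were, and the median log2 ratio was 0.46, against 0.03 over all genes. *H2-DMb2* reached 50 CPM in the dKO pDCs alone, and with a minimum of 200 CPM 0 of 13 listed genes were higher and 0 lower. The class II genes and *Cd74* lay between 0.17 and 1.14, 8 of 8 above 0. Class I genes differed as well, in T cells as in pDCs. *H2-K1* had 2138 and 3308 CPM in pDCs and 2768 and 4174 CPM in T cells, and *B2m* had 2410.2 and 3463 CPM in pDCs and 2919.5 and 4311 CPM in T cells. In *Lyz2* cells *Cd74* had 14994 and 20459 CPM. The whole list had a higher sum in the dKO cells of all 3 classes, at 10306 and 15220 CPM in T cells and 40936 and 55604.5 CPM in *Lyz2* cells, and the classes were not tested against each other. The *Lyz2* cells also differed between libraries in their neutrophil genes, as given above.

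Of the secretory pathway, 23 genes were compared with T cells, of which 2 were higher and 0 lower, against 9.7% and 7.5% of all genes. *Hsp90b1*, a chaperone of the endoplasmic reticulum, had 957 CPM in the WT pDCs and 1182 CPM in the dKO pDCs, *Sec61b* 868 and 1036.5 CPM, *Hspa5* 675 and 966 CPM, and *Herpud1* 444 and 533 CPM, the last against 70.3 and 71.8 CPM in T cells. Between genotypes none of the 23 reached a 2-fold difference, and 24 of 25 detected genes had a ratio above 1. The median log2 ratio of the 23 was 0.33, against 0.03 over all genes. The list summed to 7363 and 9229 CPM in pDCs, 3908 and 4724 CPM in T cells, and 5172 and 6082 CPM in *Lyz2* cells, so that it was higher in the library labelled dKO in each class.

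Among genes of trafficking, *Selplg* (PSGL-1) had 896 and 901.5 CPM and the integrin *Itga4* 531 and 411 CPM. *Ccr2* had 111 CPM (97.6 to 126) in the WT pDCs and 50.1 CPM (45.4 to 55.1) in the dKO pDCs, at least 2-fold lower, while T cells had 165 and 164 CPM. With the mean of each cell's CPM its log2 ratio was −0.84, and without pDCs above 2 times the median UMIs −0.66, both within 2-fold. *Cxcr3* had 91.7 and 56.2 CPM, and *Ccr7*, which leads cells to lymph nodes, 21.6 and 23.3 CPM against 221 and 104 CPM in T cells. Of 16 trafficking genes compared with T cells, 2 were higher and 3 lower, where 9.7% and 7.5% of all genes were. Of receptors for growth and survival, *Ifnar2* had 595 and 722 CPM, *Il7r* 322 and 327 CPM, *Csf2rb* 188 and 197 CPM, and *Flt3*, the receptor that pDC development needs, 137 and 125 CPM, with 4 of 14 higher than in T cells and 1 lower, against the same shares of all genes.

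pDCs share several genes with lymphocytes. *Blnk*, a B cell adaptor, had 781 and 662 CPM in pDCs, *Ighm* 552 and 402 CPM, *Ly6a* 1304 and 2042 CPM, and *Dntt*, the polymerase that adds bases to receptor joints, 199 and 123 CPM. Of 16 such genes compared, 6 were higher than in T cells and 5 lower, where 9.7% and 7.5% of all genes were. The 16 genes listed for B cells and plasma cells summed to 993 CPM in the WT pDCs and 1228 CPM in the dKO pDCs, against 219 and 145 CPM in T cells. All 4 that could be compared (*Igkc*, *Ighm*, *Mzb1* and *Cd79b*) were at least 4-fold higher than in T cells (9.7% of all genes), and *Igkc* and *Mzb1* were at least 2-fold higher in the dKO pDCs than in the WT pDCs (0.557% of all genes). Both fell under that limit with the mean of each cell's CPM (log2 ratios of 0.99 and 0.78) and without pDCs above 2 times the median UMIs (0.91 and 0.88). *Cd79a* had 8 and 19 UMIs in all pDCs, and *Ms4a1* 3 and 4. The part of B cells or plasma cells in these levels was not tested.

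*Cd4*, whose protein names the isolated cells and whose promoter drives Cre, was present in the pDCs. The gate of the isolation was not given in the sources used here. It had 218 CPM (199 to 239) in the WT pDCs and 289.9 CPM (278.5 to 302) in the dKO pDCs, against 242 and 796 CPM in T cells and 38.5 and 38.9 CPM in *Lyz2* cells. After thinning, 33.1% of the WT pDCs and 39.7% of the dKO pDCs had a *Cd4* UMI (34.0% and 51.2% unthinned), against 36.2% and 69.2% of T cells and 5.36% and 3.68% of *Lyz2* cells. *Cd8b1*, the beta chain of Cd8, had 314 and 339 CPM in pDCs, against 6.6 and 15.6 CPM in T cells, while the alpha chain *Cd8a* had 6.29 and 19.4 CPM. *Foxp3*, the factor of regulatory T cells that the study turns on, had 1 UMI in the WT pDCs and 23 UMIs in the dKO pDCs (0.449 and 2.72 CPM), against 53.7 and 252 CPM in T cells.

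Lists of markers of other cells differed in their level in the pDCs. All 16 listed T cell genes were at least 4-fold lower than in T cells, where 7.5% of all genes were, but 3 of them are the Cd3 genes, which are fixed by how both classes were chosen. The 16 summed to 199 CPM in the WT pDCs and 83.6 CPM in the dKO pDCs, against 7822 and 7709 CPM in T cells. Each of the other 13 had a UMI in a pDC. Receptor genes such as *Trac* (7.64 and 5.79 CPM) are tied to the choice as well, since pDCs had no contig and T cells had 1. Only 1 of the 16 reached 50 CPM in the pDCs of a library, so the others were compared through their level in T cells. The neutrophil list summed to 0.899 and 3.31 CPM and the erythroid and platelet list to 0 and 0.354 CPM. The macrophage and monocyte list summed to 2508 and 1851 CPM in pDCs, against 340.4 and 311 CPM in T cells and 30845 and 27839 CPM in *Lyz2* cells, with 2 of 3 compared genes at least 4-fold higher than in T cells (9.7% of all genes). Most of it was *Ly6c2*, which the pDC identity list also holds, and *Cd68* (414 and 425 CPM). *C1qa* had 4 and 24 UMIs, *Csf1r* 0 and 9 UMIs, and *Lyz2* is at 0 by the rule. Albumin (*Alb*) had 3 and 12 UMIs. The endothelial and stellate list summed to 303 and 261 CPM, most of it *Pecam1*, which leukocytes also carry, and *Cdh5* at 116 and 104 CPM, with *Clec4g* at 36.8 CPM in the WT pDCs and 5.2 CPM in the dKO pDCs. Of markers of other dendritic cells, *Clec9a* had 241 and 284 CPM, *Cd209a* 197 and 103 CPM, *Sirpa* 143 and 131 CPM, and *Lifr* 155.5 and 130.2 CPM, while *Xcr1* had 1 and 0 UMIs and *Batf3* 4 and 8. Against T cells, 2 of 2 type 1 and 4 of 4 type 2 conventional dendritic cell genes were at least 4-fold higher (9.7% of all genes). Their median log2 ratios, 7.44 and 6.74, and 6.47 and 7.58, lay above those of pDC identity (5.50 and 5.63). Of 12 transitional dendritic cell genes 2 were higher and 3 lower, and of 4 mature ones 0 and 2. A high ratio over T cells thus does not by itself separate pDCs from other dendritic cells. The part of doublets or of other dendritic cells in these values was not tested.

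Cell cycle genes were low in the pDCs. The 15 listed cell cycle genes summed to 257 CPM in the WT pDCs and 272 CPM in the dKO pDCs, against 2523 and 2536 CPM in T cells. Of 12 compared, 11 were at least 4-fold lower than in T cells, against 7.5% of all genes. Only 1 of the 15 reached 50 CPM in the pDCs of a library. The others were compared through their level in T cells, which tilts that count but not the sums. *Mki67* had 3.15 and 6.02 CPM against 198 and 174 CPM.

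pDCs made up 8.72% (8.19 to 9.28) of the filtered cells labelled WT and 15.9% (15.3 to 16.4) of those labelled dKO, which differ by 7.15 percentage points (6.38 to 7.91 by Newcombe's method). Under 10 other rules or denominators it was 6.31 to 8.85 points. The cells were isolated as CD4+ T cells before the libraries, so these are shares of isolated cells and not of the liver. Fewer cells of other types cannot be told apart from more pDCs. Among cells with no contig the shares were 13.7% and 22.1%.

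The depth of the pDCs differed in shape between the libraries. In the one labelled WT the counts per cell spread from 526 to 9369, with 10% under 803 UMIs and 10% above 4773, and with peaks on either side of about 2000 UMIs. In the one labelled dKO 10% lay under 2065 and 10% above 3988, around a single peak. At least 2000 UMIs were found in 47.9% of the WT pDCs and 91.6% of the dKO pDCs. *Siglech* UMIs per cell had medians of 5 and 6, near the limit of 2 in both libraries.

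**Figure D2:**
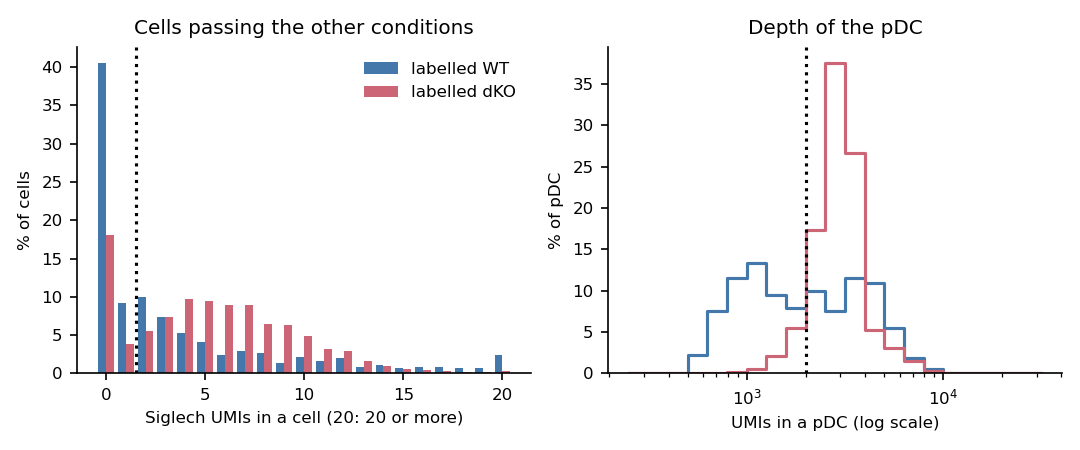
Left, percent of cells that passed all other conditions, by *Siglech* UMIs in the cell, with the limit between 1 and 2 UMIs dotted. Right, percent of pDCs by UMIs per cell on a log axis, with 2000 UMIs dotted, where the WT pDCs spread over both sides (47.9% at or above the line) and 91.6% of the dKO pDCs lie at or above it.

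In the WT pDCs the shallow and the deep cells did not have the same profile. The 480 cells under 2000 UMIs had *Ccr9* at 497 CPM, against 949 CPM in the 441 cells at or above it. *Mctp2* had 531 and 1061 CPM, *Tcf4* 1130.2 and 1948 CPM, and *Cd69* 382 and 814 CPM, all lower in the shallow cells. *Cox6a2* had 3206 and 1915 CPM, *Ly6d* 3060.2 and 2029 CPM, *Bst2* 5176 and 3639 CPM, and *Ccl4* 14576 and 10729.8 CPM, all higher there. *Klk1*, *Irf8*, *Nr4a1* and *Cd4* differed by less than 0.25 on the log2 scale. In the dKO pDCs, of which 234 had under 2000 UMIs and 2538 at least that many, most of these differences were not seen. *Cox6a2* had 1280.5 CPM in the shallow and 1294 CPM in the deep cells, *Tcf4* 1491 and 1492 CPM, *Ly6d* 3289 and 3267 CPM, *Ccr9* 846 and 875 CPM, and *Cd69* 445 and 405 CPM. *Bst2* was higher in the shallow cells there too (4759 and 4323 CPM), and *Ccl4* went the other way, with 8634 and 11941 CPM. What sets the depth was not tested.

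Between genotypes, 3410 genes had at least 50 CPM in the pDCs of a library. Of these 19 were at least 2-fold higher in the dKO pDCs (0.557%) and 34 at least 2-fold lower (0.997%). With TMM scaling, a normalization of the summed profiles that discounts extreme genes, the split was 30 higher and 29 lower, with the same 19 and 29 of the same 34 among them. With each cell thinned to 2000 UMIs it was 23 higher and 63 lower, with 17 of the 19 and 32 of the 34 among them. Of the 31 identity genes, 2 were among the lower ones (*Gm21762* and *Cd209d*). No gene of the transcription factor, sensing, regulatory receptor, secretory, cytokine and survival lists was among the 53, while the list of chemokine receptors and trafficking held 1 (*Ccr2*). Of the 53, 32 had at least 50 CPM in T cells and 17 of those differed at least 2-fold in the same direction there, 4 of 9 higher and 13 of 23 lower. The share of all genes at least 2-fold apart between the T cells of the libraries is not given here. Whether 17 of 32 exceeds it was not tested.

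By the fixed rule the lowest 10 genes in the dKO pDCs began with 2 predicted genes of chromosome 13. *BC147527* had 116 CPM (103 to 131) in the WT pDCs and 3.90 CPM (2.68 to 5.47) in the dKO pDCs, a log2 ratio of −4.90 (−5.47 to −4.37), with 12.8 and 0.898 CPM in T cells. *Gm21762* had 375 and 18.1 CPM, a log2 ratio of −4.38 (−4.63 to −4.13), and under 1 CPM in T cells. Both lie within 0.473 megabases of *D13Ertd608e*, which had the largest rise under the rule, from 30.6 CPM (23.7 to 38.7) to 172 CPM (163 to 181). All 3 are little described genes, and their counts could be split among similar copies. *A430035B10Rik* had 125 and 16.7 CPM, *Agbl1* 144 and 36.2 CPM, and *Gm829* 153 and 53.9 CPM, all with under 5 CPM in T cells.

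Other genes were lower in T cells of the library labelled dKO too. *Cdk8* had 6367 and 2185 CPM in pDCs and 7317 and 2041 CPM in T cells, and *Gm48099* 82.7 and 27.3 CPM in pDCs and 76.6 and 23.1 CPM in T cells. Of the 34 lower genes, 20 had at least 50 CPM both in T cells and in *Lyz2* cells, and 11 of those were at least 2-fold lower in both, among them *AY036118*, *Cdk8*, *Cmss1*, *Gm15564*, *Gm19951*, *Gm42418*, *Gm48099*, *Il31ra* and *Lars2*. *Gm42418* and *AY036118*, which overlap ribosomal RNA sequence, had 11806 and 4643 CPM and 1184 and 544 CPM. These 11 differed in the same direction in all 3 classes of cells, of which the *Lyz2* cells were not made up alike in both libraries. The share of all genes at least 2-fold lower in both other classes is not given here. Whether 11 of 20 exceeds it was not tested.

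*Rgs1*, an inhibitor of chemokine receptor signals, had 785 CPM (749 to 823) in the WT pDCs and 236 CPM (226 to 247) in the dKO pDCs, a log2 ratio of −1.73, against 1231 and 860 CPM in T cells. *Junb* had 675 and 300.03 CPM, *Zfp36*, which destabilizes cytokine RNA, 1824 and 888 CPM, and *Btg2* 632 and 292 CPM. In the list of immediate early and stress genes, 2 of 13 (*Junb* and *Zfp36*) were at least 2-fold lower and 0 higher, against 0.997% and 0.557% of all genes. With TMM scaling *Zfp36* was at −0.96 and *Atf3* at 1.05 on the log2 scale, so that 1 was lower and 1 higher. The list summed to 9757 CPM in the WT pDCs and 7332 CPM in the dKO pDCs, and was lower in the dKO cells of the other classes too, at 10544 and 8541 CPM in T cells and 13117 and 8213 CPM in *Lyz2* cells. In cluster 3 of the clustering described below it went the other way, at 10408 CPM in the WT cells and 15450 CPM in the dKO cells. *Jun* had 1498.5 and 833 CPM and *Fos* 1028 and 559 CPM, below that limit, whereas *Egr1* had 31.0 and 34.3 CPM and *Nr4a1*, as above, was higher. *Cd28*, the 10th gene, had 58.9 and 22.4 CPM, with 563 and 376 CPM in T cells. *Cd209d*, a lectin, had 254 and 97.7 CPM with under 1 CPM in T cells.

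The 10 highest genes in the dKO pDCs, after *D13Ertd608e*, included the cell cycle inhibitor *Cdkn1a*, with 16.2 CPM (11.3 to 22.4) in the WT pDCs and 59.9 CPM (54.8 to 65.3) in the dKO pDCs, against 80.5 and 125 CPM in T cells. *Crip1*, a LIM protein, had 257 and 637 CPM in pDCs and 1406 and 1304 CPM in T cells. *Abcg1*, a cholesterol exporter, had 66.05 and 158 CPM (37.7 and 41.0 CPM in T cells), *Ralgps2* 50.8 and 126 CPM (39.9 and 39.4), and *H2-DMb2*, a peptide loading chain, 36.9 and 81.3 CPM. *Gclm*, of glutathione synthesis, had 56.2 and 127 CPM, *Wdfy1* 16.6 and 56.6 CPM, and *Glo1* 34.2 and 74.5 CPM. After thinning to 2000 UMIs *Gclm* (0.96) and *Glo1* (0.95) were under 1 on the log2 scale. *Gm30211* had 149.6 and 390.04 CPM. It overlaps *Igkc* (chr6:70726435-70726966), which had 238 and 492 CPM, so their UMIs may not be separable. Outside those 10, *Mzb1*, a chaperone of antibody-secreting cells and pDCs, had 127 and 258 CPM, *Pim1* 190.1 and 408 CPM, and *Bhlhe40* 115 and 237 CPM. Without pDCs above 2 times the median UMIs *Pim1* was at 0.93 on the log2 scale.

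A few genes were found almost in 1 library alone, *BC018473* and *Gdpd3* in T cells as in pDCs. *BC018473* had 0 UMIs in the WT pDCs and 1852 UMIs in the dKO pDCs (219 CPM, at least 162-fold higher against 3 counts per library), and 0 and 69.6 CPM in T cells. *Gdpd3* had 2 and 800 UMIs in pDCs (0.899 and 94.5 CPM), and 0.336 and 494 CPM in T cells. *Cd59a* had 4 and 440 UMIs in pDCs. These genes were named after their values were seen, since the rule asks for 10 UMIs in the lower library.

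**Figure D3:**
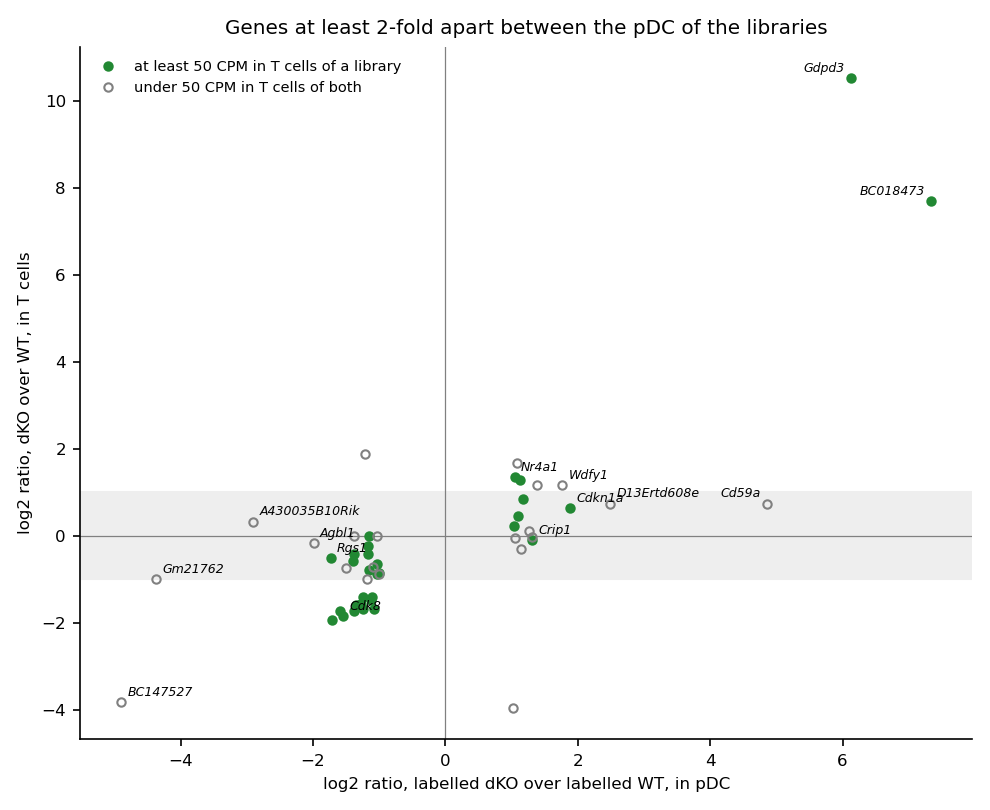
Each point is 1 of the 53 genes at least 2-fold apart between the pDCs of the libraries, with the log2 ratio of dKO over WT in pDCs on the horizontal axis and in T cells on the vertical axis. Filled points have at least 50 CPM in T cells, the grey band marks less than 2-fold in T cells, and genes at 3 or fewer UMIs in a library are drawn at 3. *Cdk8* is low on both axes, whereas *Gm21762*, *Rgs1* and *D13Ertd608e* lie in the band.

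The spread of single genes from cell to cell was measured in the thinned pDCs, which leaves out 480 of the 921 WT cells. The variance of a gene's UMIs over their mean, near 1 for counting noise alone, had medians of 1.04 in the WT pDCs and 1.04 in the dKO pDCs over 4795 genes, most of them at means so low that counting noise makes up nearly all of the variance, and 45 genes reached 2 in both. *Ccl4* led at 17.4 and 24.4. Its thinned UMIs per cell had medians of 17 and 15, with 10% of cells at or below 0 and 1, and 10% at or above 48 and 58, up to 95 and 149. Next came *Gm42418*, *Hspb1* (6.99 and 8.04), *Ccl3* (6.37 and 6.38), *Cdk8*, *Igkc*, *Klk1* (4.55 and 6.13), *Cd74* (4.79 and 4.37), *Hspa1a* and *Fth1*. The variation of *Hspb1* came from few cells, since a UMI was found in 2.72% and 1.69% of pDCs.

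**Figure D4:**
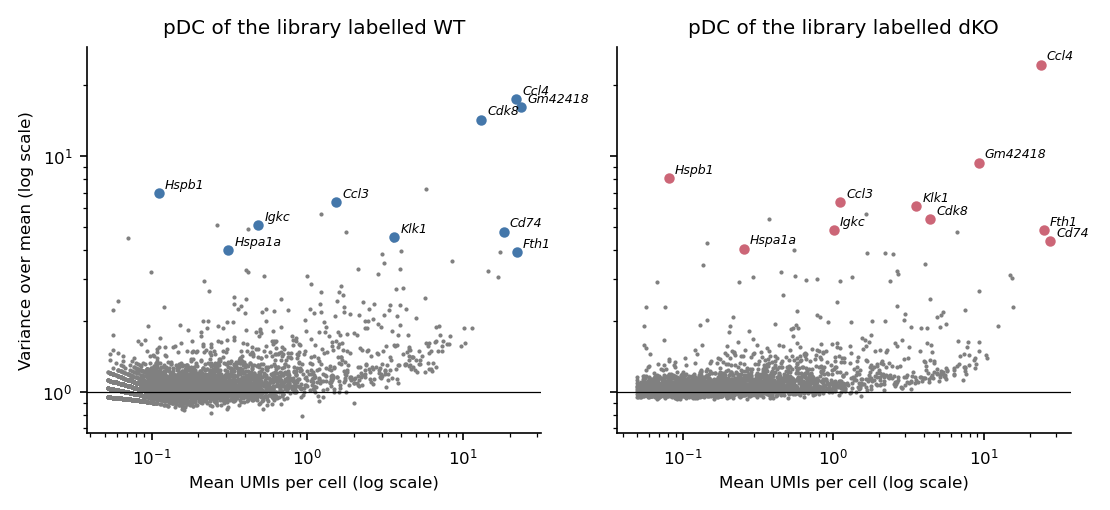
Variance over mean of thinned UMIs per pDC against the mean UMIs per cell, both on log axes, for 4795 genes in each library. The line marks 1, and the 10 genes named by rule are coloured, with *Ccl4* highest at 17.4 and 24.4, and *Gm42418*, of nearly the same mean in WT, next to it there at 16.2.

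Clustering of the 3693 pDCs gave 6 clusters, which are numbered and not named, and whose cells changed with the settings (the adjusted Rand index, 1 for the same clusters, was 0.364 at a higher resolution and 0.554 with fewer components). Clusters 1 and 2 split by library: cluster 1 held 2261 dKO cells and 72 WT cells, and cluster 2 held 709 WT cells and 32 dKO cells, so that each may be a library rather than a kind of cell. Their pDC identity genes summed to 24024 CPM in the dKO cells of cluster 1 and 27163 CPM in the WT cells of cluster 2. Cluster 3 held 83 WT and 361 dKO cells, and its leading genes included *Hspb1*, *Hspa1a*, *Hspa1b*, *Hsph1*, *Dnajb1* and *Jun*, genes of heat shock and immediate early response. *Ccl4* was at 1103 CPM (984 to 1232) in its WT cells and 5412 CPM (5271 to 5555) in its dKO cells, below the 13477 CPM in the WT cells of cluster 2 and the 12217 CPM in the dKO cells of cluster 1, while *Tcf4* was at 2131 and 1712 CPM.

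Cluster 5 held 70 dKO cells and 2 WT cells and had interferon-stimulated genes among its leading genes (*Ifi211*, *Cxcl10*, *Rsad2*, *Isg15*, *Ifit2* and *Usp18*). In its dKO cells *Isg15* had 1482 CPM (1333 to 1643), against 26.5 CPM in the dKO cells of cluster 1, *Ccl4* had 27875 CPM (27216 to 28546), and *Klk1* had 4360.5 CPM (4102 to 4631) against 1642 CPM. The interferon genes themselves had 2 UMIs in those 70 cells. Cluster 4, with 45 WT and 43 dKO cells, had *Tox*, *Atxn1*, *Skap1*, *Camk4*, *Lck* and *Cd247* among its leading genes, and its T cell list summed to 1539.8 and 1044 CPM although the Cd3 genes are at 0 by rule. Without it, an alternative chosen after the data were seen, 22 genes were higher and 36 lower in the dKO pDCs, and the shares were 8.30% and 15.6%. Cluster 6 held 10 WT and 5 dKO cells, with *Tcf4* at 10488 and 8442 CPM and with 3 and 1 UMIs of *Bst2* (181 and 136 CPM). *Klk1* (181 and 0 CPM) and *Cox6a2* (121 and 136 CPM) were low there too, whereas *Ccr9* had 542 and 1225 CPM. *Malat1* had 22060 and 26825 CPM, against 7285 CPM in the dKO cells of cluster 1. Whether the cells of cluster 6 are pDCs was not tested. All of these are descriptions, since the same genes formed the clusters.

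**Figure D5:**
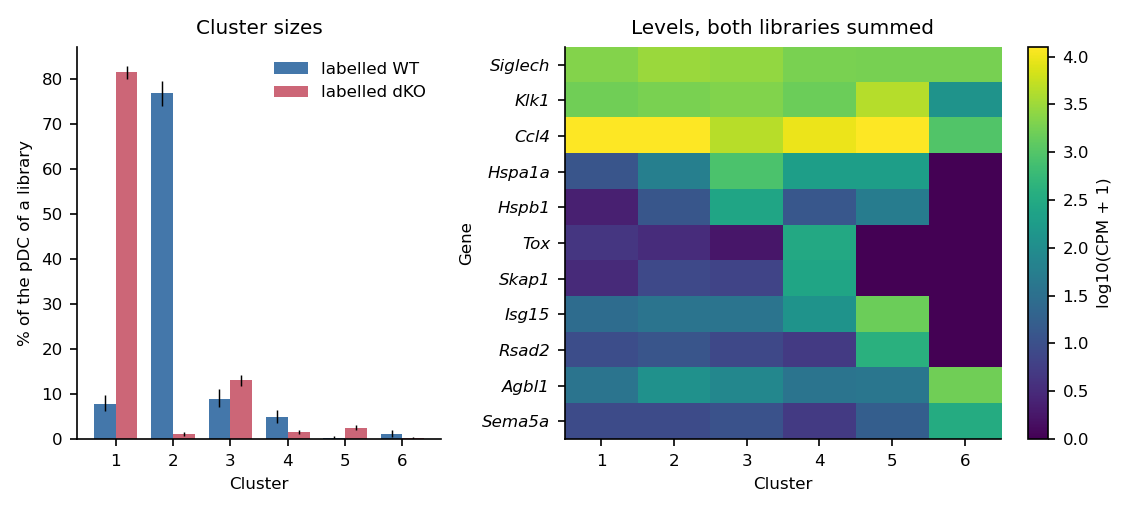
Left, percent of the pDCs of each library in each cluster, with exact 95% intervals. Right, level of chosen genes in each cluster as log10 of CPM + 1 with both libraries summed, where *Hspb1* is bright in cluster 3, *Tox* in cluster 4, *Isg15* in cluster 5 and *Agbl1* in cluster 6. *Agbl1* in cluster 6 came mostly from its WT cells, at 2290 CPM against 136 CPM in its dKO cells.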

How the data were processed

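The authors deposited, per library, raw UMI counts of each cell by gene (Cell Ranger 7.0.1 per the file header, mm10, 5′ kit, droplets called as cells, not normalized) and a list of T cell receptor contigs. No column was left unused. From these, CPM, log2 ratios and shares were computed for the filtered cells (more than 200 genes, under 5% mitochondrial UMIs). The members and gene lists were chosen with earlier results of these data known.

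No test between genotypes was possible with 1 library each. A gene counted as higher or lower between genotypes at 2-fold where a library had at least 50 CPM, and against T cells at 4-fold in both libraries with at least 50 CPM in pDCs or T cells of each. A ratio takes counts below 3 as 3. Genes were named by rule: the markers, the leading genes of each list, the 10 genes at each end of the genotype ratio (at least 10 UMIs in the lower library, without ribosomal protein, mitochondrial, immunoglobulin and T cell receptor genes), the 15 highest over T cells (at least 100 CPM), the 10 with the highest variance over mean (mean of at least 0.05 UMIs), and *Nr4a1*, *Nr4a2*, *Cd4* and *Foxp3*. Some genes that these rules name are not reported here, though the counts include them.

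Clusters came from scanpy (2000 variable genes, 15 components, resolution 0.3, seed 1, no integration). No doublet caller was run, since the rule removes cells with Cd3 UMIs, contigs or *Lyz2*. Pooled depth was 23437516 and 37794986 UMIs in the filtered cells. The alternatives were other limits of the rule, thinning, TMM factors, other level limits and other cluster settings. Positions are from GENCODE M21 on GRCm38 (32158 of 32285 genes) and promoters from RefSeq. The tools were Python 3.11.15 with scanpy 1.11.5, scipy 1.17.1, pandas 2.3.3, numpy 2.4.6, matplotlib 3.10.9 and scikit-learn 1.9.0, and edgeR 4.0.16 in R 4.3.3 for TMM factors alone, and the counting was tested on simulated data.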

Additional observations from a re-analysis of the deposited data

How the results depend on the processing

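The share of pDCs stayed higher in the library labelled dKO under every rule tried. In percent of WT cells and of dKO cells it was 10.3 and 16.6 with 1 *Siglech* UMI (a difference of 6.31 points), 6.99 and 14.8 with 3, 9.69 and 17 with at most 1 Cd3 UMI, 7.27 and 14.2 after thinning to 1000 UMIs (1929 and 3071 cells left out), and 13.7 and 22.1 of cells with no contig (8.35 points). It was 16.7 of dKO cells with no condition on *Lyz2*. Without pDCs above 2 times the median UMIs it was 6.64 of WT cells and the difference 8.85 points. Of genes higher in the dKO pDCs there were 30 with TMM factors and 30 with the mean of each cell's CPM in place of 19. With a minimum of 10 CPM there were 80 higher and 155 lower, and 636 higher and 712 lower than in T cells. With 200 CPM these were 8, 16, 152 and 79. After thinning to 2000 UMIs 63 genes were lower in place of 34. The 24 genes followed over 8 settings were the 10 at each end of the genotype ratio and *Igkc*, *Cd59a*, *Gdpd3* and *BC018473*. Of their 192 values, 188 stayed at least 2-fold the same way, the exceptions being *Igkc* at 2 settings and *Gclm* and *Glo1* at 1 each. None of the 192 changed its direction. Other genes named above also fell within 2-fold at a setting, among them *Ccr2*, *Mzb1*, *Pim1* and *Zfp36*. The *Ccl4* share in the dKO pDCs was 86.8% thinned to 1000 UMIs and 94.3% thinned to 3000. The clusters changed with every setting tried. The WT pDCs alone gave 3 clusters in place of 6 (adjusted Rand index 0.18), the dKO pDCs alone 4 (0.483), a resolution of 0.6 gave 9 (0.364) and 10 components gave 6 (0.554). The cause of each change was not tested. No paired analysis was possible because each genotype has 1 library. A WT gene with 111 UMIs at 50 CPM had an interval of 41.0 to 60.1 CPM, so that smaller differences of low genes were not detectable at this depth.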

Other observations

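The 5 genes of chromosome 17 that were higher in the dKO pDCs (*Cdkn1a*, *Pim1*, *Glo1*, *Abcg1* and *H2-DMb2*) all lay between 29090976 and 34151555 (GRCm38), a stretch of 5.06 megabases that was noticed after the values were seen. It held 30 of the 181 genes of that chromosome with at least 50 CPM. None of the 30 was at least 2-fold lower, and 19 had a ratio above 1, against 104 of the 181. Over the chromosome 5 were at least 2-fold higher and 2 lower, where 0.557% and 0.997% of all genes were. *Cdkn1a*, *Glo1* and *H2-DMb2* reached 50 CPM in the dKO pDCs alone. The 5 genes set the bounds of the stretch and are among the 30, so these counts are tilted by that choice. The median log2 ratio of the 30 was 0.13 in pDCs and 0.15 in T cells, against 0.07 and 0.09 over the chromosome.

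Of 7 genes of sterol and fatty acid metabolism with at least 50 CPM in the pDCs, *Abcg1* was at least 2-fold higher in the dKO pDCs and none was lower, where 0.557% and 0.997% of all genes were, at a median log2 ratio of 0.21 against 0.03 over all genes. *Plin2*, which coats lipid droplets, had 26.1 and 26.0 CPM in pDCs, against 692 and 477 CPM in *Lyz2* cells of the same livers.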
